A study of Mus musculus with 6 samples.

Results

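The regions described here carried an H3K27ac peak in Mfp2 knockout cells and in Bmal1 knockout cells but none in wild-type cells. Peaks of the 3 deposited lists that overlapped by at least 1 bp on chromosomes 1 to 19 were merged into 38990 regions, and 801 of these held at least 1 peak of each knockout and no wild-type peak. They were 5.25% of the 15244 regions called in both knockouts, and 7.29% of the 10995 regions with a knockout peak and no wild-type peak. These regions were selected on the authors' peak calls in all 3 genotypes, that is on tags and fold over input, so their presence in the knockouts and absence from wild type is a description and not a result, and nothing is tested from it. The lists give no wild-type tag number where wild type has no peak, so the size of a difference from wild type could not be measured at any of the 801 regions. They are therefore called knockout-shared regions below, not gains.

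Acetylation of histone H3 at lysine 27 (H3K27ac) marks active promoters and enhancers, where the acetyltransferases p300 and CBP place it. BMAL1 is a transcription factor of the circadian clock that binds E-box sequences together with CLOCK, and in macrophages the clock sets daily rhythms of inflammatory genes. MFP2 is an enzyme of peroxisomal β-oxidation, which shortens very long chain fatty acids and yields acetyl-CoA, the donor of the acetyl group in histone acetylation. The title of the series links BMAL1 to inflammation in macrophages through MFP2 in the nucleus.

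All cells were RAW264.7, a mouse line that the labels call macrophage-like, grown in DMEM with 5% serum. There were 3 genotypes, Mfp2 knockout (Mfp2KO), Bmal1 knockout (Bmal1KO) and wild type, the last titled naive, and no stimulus is stated for any of them. Each genotype had 1 H3K27ac ChIP library and 1 input library, and no label tells if the knockout cells were clonal or pooled. With no replicate, no difference between genotypes was tested, and every value is that of 1 library. Positions are in mouse build mm39. The gene table at hand is of another build, so no region was assigned to a gene, macrophage markers and the targeted genes themselves were not analysed here, and no sequence is shown.

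The ChIP libraries held 15.8 M tags in Mfp2KO, 12.5 M in Bmal1KO and 15.8 M in wild type. The stated minimum for a 500 bp window was 10 tags in Mfp2KO, 9 in Bmal1KO and 10 in wild type. Per 10 M library tags this comes to 6.34 in Mfp2KO, 7.18 in Bmal1KO and 6.33 in wild type. Some called regions had fewer normalized tags. The lowest were 5.7 in Mfp2KO and 6.38 in Bmal1KO at the 801 regions, and 5.07 at regions of wild type alone. This minimum is thus not a limit on the normalized tags, and its part in the missing wild-type calls was not tested. A region also needed at least 4-fold more tags than its own input, a step that removed 753 putative peaks in Mfp2KO, 826 in Bmal1KO and 1052 in wild type. In the authors' headers, 57.15% of tags lay in peaks in Mfp2KO, 37.35% in Bmal1KO and 38.71% in wild type. Tags below are the authors' normalized tags, scaled to 10 M tags of the library.

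The knockout-shared regions were short and held few tags. Their median merged length was 1359 bp, against 3194 bp for the 14443 regions called in every genotype, where it also spans wild-type peaks. Over the knockout peaks alone, the median called length was 1034 bp in Mfp2KO and 766 bp in Bmal1KO. At regions called in every genotype it was 2228 bp in Mfp2KO and 2406 bp in Bmal1KO. Regions called in wild type and a single knockout were of like merged length, with medians of 1590 bp for Mfp2KO and 1503 bp for Bmal1KO. Their called length in the knockout had medians of 1005 bp in Mfp2KO and 759 bp in Bmal1KO. Short length was thus not particular to the knockout-shared regions. The median was 33.9 tags in Mfp2KO (quartiles 12.7 and 91.6) and 17.2 tags in Bmal1KO (10.4 and 31.9). At regions called in wild type and a single knockout the median was 26 tags in Mfp2KO or 14 in Bmal1KO, and at regions called in every genotype 260.1 tags in Mfp2KO and 145.2 in Bmal1KO. Regions called in Mfp2KO alone had a median of 12 tags in that library, and regions called in Bmal1KO alone 9.57 tags, so the knockout-shared regions lay between those of 1 knockout and those of every genotype. In all, they held 0.956% of the tags in Mfp2KO peaks and 0.631% of those in Bmal1KO peaks, over 2.18% and 1.72% of the called length.

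Most of them held a single peak of each knockout, and an overlap of these peaks by at least 1 bp was set by the merging. In 781 of the 801 there was 1 peak of each knockout, in 15 there were 2 Bmal1KO peaks with 1 Mfp2KO peak, and in 5 the reverse. The knockout peaks overlapped by at least 50% of the shorter one in 684 regions (85.4%, 95% Wilson interval 82.8 to 87.7, which covers the counting of regions only). In 327 the shorter peak lay wholly inside the longer. Like shares over all regions called in both knockouts are not given, so these overlaps only describe the 801. The Mfp2KO peaks covered more sequence in 434 regions, and the Bmal1KO peaks in 287. Of the peak widths, 199 in Mfp2KO and 259 in Bmal1KO were at the 500 bp that is the smallest the caller gives.

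Few of the regions held many tags in both knockouts. A limit of 20 tags was used, which is under the median of all peaks, 65.9 in Mfp2KO and 35.9 in Bmal1KO. At least 20 tags were present in each knockout in 268 regions (33.5%, 30.3 to 36.8), against 84.1% (83.5 to 84.6) of the regions called in every genotype. At least 100 tags in each were present in 26 (3.25%, 2.22 to 4.71), against 55.9% (55.1 to 56.7). The 12 regions with most tags in whichever knockout was lower are described next, with Poisson intervals of 95% that cover counting error only.

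The region that led this ranking lay on chromosome 5 (107871946-107875594), with 507 tags in Mfp2KO (interval 472 to 543) and 277.2 in Bmal1KO (249 to 308). The peaks spanned 2401 bp in Mfp2KO and 3643 bp in Bmal1KO, and the nearest wild-type peak lay 21346 bp away. Enrichment over input was 9.56-fold in Mfp2KO and 6.11-fold in Bmal1KO. Here the counting intervals of the knockouts did not overlap. The region on chromosome 2 (150849981-150852364) held 264.6 tags in Mfp2KO (239.8 to 291) and 277.2 in Bmal1KO (249 to 308). Its intervals overlapped, and at 9.42-fold and 11.73-fold over input it had the highest lower fold of the 12. Its nearest wild-type peak, 27322 bp away, held 168.4 tags.

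On chromosome 4 (148241307-148245329) there were 296.3 tags in Mfp2KO (270.0 to 324) and 211.8 in Bmal1KO (187 to 239). The Bmal1KO peak was 4022 bp long and the Mfp2KO peak 2069 bp, and a wild-type peak of 9.81 tags lay 2750 bp away. At 171096692-171101002 of chromosome 1 Mfp2KO reached 443.6 tags (411 to 478) and Bmal1KO 155.2 (134 to 179), with a wild-type peak of 13.9 tags at 2400 bp. In both of these the wild-type list thus held a short, weak peak close by. The chromosome 1 region was the one of the 12 with the widest gap between the knockouts, at 1.52 on the log2 scale (interval 1.29 to 1.74).

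In 3 of the 12 the nearest wild-type peak was at least 31851 bp away. On chromosome 9 (75220568-75222672) there were 231.3 tags in Mfp2KO (208 to 256) and 181.9 in Bmal1KO (159 to 207), and the wild-type peak at 31851 bp had 8.86 tags. On chromosome 1 (74820556-74822556) there were 167.3 tags in Mfp2KO (148 to 189) and 128.8 in Bmal1KO (109.7 to 150.3), at 32954 bp from a wild-type peak. The last of them, on chromosome 18 (4919526-4923000), held 278.5 Mfp2KO tags and 199.9 Bmal1KO tags and lay 409960 bp from the nearest wild-type peak. Over the 12, the interval of the ratio lay above 0 in 8, with more tags in Mfp2KO, and below 0 in none. The Bmal1KO peak was nevertheless the longer one in 10 of the 12, whereas over all knockout-shared regions it was longer in 35.8%. The Mfp2KO called length was the greater in 54.2% of the knockout-shared regions but in 41.1% of those called in every genotype.

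In 7 of the 12 the lower of both folds was under 6, where 4 was required, against 638 of all 801 (79.7%). Input in the 12 regions ran from 6.88 to 26.6 tags per 10 M per kb in Mfp2KO and from 5.48 to 21.7 in Bmal1KO. The medians over all peaks of the lists were 5.66 in Mfp2KO and 4.34 in Bmal1KO, so all 12 were above the list median in both inputs. Regions called in every genotype with 100 to 200 tags in the lower knockout were above it too in their medians, at 9.60 in Mfp2KO and 6.59 in Bmal1KO, where 23 knockout-shared regions of that range had 15.8 and 11.1. In the plot of the 12 leading regions the input of the 12 is seen as squares to the right of the dashed lines.

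**Figure D1:**
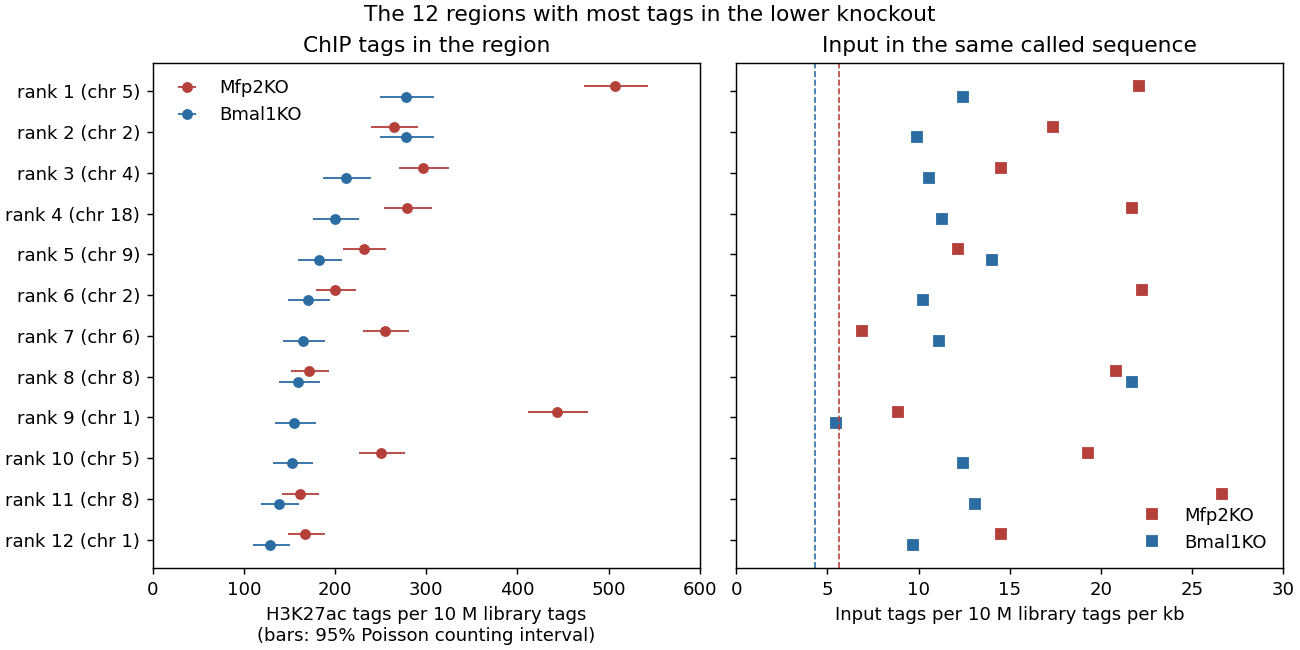
The 12 knockout-shared regions with the highest tag number in the lower knockout, by rank. Left, H3K27ac tags per 10 M library tags in Mfp2KO (red) and Bmal1KO (blue) with 95% Poisson counting intervals; right, input tags per 10 M per kb of called sequence, with dashed lines at the list medians of 5.66 in Mfp2KO and 4.34 in Bmal1KO. Tags run from 161.3 to 507 in Mfp2KO and from 128.8 to 277.2 in Bmal1KO, and every square lies right of its line.

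Enrichment over input was lower at most knockout-shared regions than at regions called in every genotype. The lower of the knockouts' folds was under 5 in 429 of the 801 (53.6%, 50.1 to 57.0), against 13.5% (12.9 to 14.0) of regions called in every genotype. It was at least 8 in 33 (4.12%, 2.95 to 5.73), against 52.9% (52.1 to 53.7). The medians of this lower fold were 4.89 and 8.39. Median folds in Mfp2KO were 6.03 at knockout-shared regions, 5.41 at regions of Mfp2KO alone and 6.6 at those of wild type and Mfp2KO. In Bmal1KO they were 5.33, 5.97 at regions of Bmal1KO alone and 6.52 at those of wild type and Bmal1KO. Low fold in each knockout was thus not particular to the knockout-shared regions. Restricting both sets to at least 20 tags in each knockout gave 57.8% (51.9 to 63.6) under 5-fold against 9.47% (8.96 to 10.0). The sets still differed in tags, with medians of 35.9 and 195.9 in the lower knockout. With 20 to 50 tags in the lower knockout the median lower folds were closer, at 4.70 and 5.69. Since every region passed a limit of 4-fold in each list, and since fold is part of the call, these shares describe the regions and are not tested.

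At like tags in the lower knockout, the knockout-shared regions had more input per kb than regions called in every genotype. The tags of the other knockout were not matched. The median log2 ratio of Mfp2KO to Bmal1KO tags was 1.26 against 0.33 at 20 to 50 tags, and 0.99 against 0.74 at 50 to 100. Among regions with 20 to 50 tags in the lower knockout, 181 knockout-shared regions had a median input of 7.61 tags per kb in Mfp2KO and 5.13 in Bmal1KO. The 2236 regions called in every genotype had 4.21 in Mfp2KO and 3.81 in Bmal1KO in the same range of lower tags. With 50 to 100 tags the medians were 11.5 in Mfp2KO and 8.01 in Bmal1KO over 61 knockout-shared regions, against 5.80 and 4.95 over 1828 regions called in every genotype. Under 10 tags the difference was smaller, at 3.11 in Mfp2KO and 2.75 in Bmal1KO against 2.35 and 2.42. The merged span of the knockout-shared regions was also shorter, with medians of 1778 bp against 2724 bp at 20 to 50 tags. At 50 to 100 tags it was 1996 bp against 3176 bp. At regions called in every genotype this span takes in the wild-type peaks. Tags and input were counted over each knockout's own peaks. The part of length in the input difference was not tested. Wild-type input at the 801 regions is not given by the lists, and its part in the missing wild-type call was not tested.

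The share of knockout regions that lacked a wild-type peak fell as tags and fold went up. Tags and fold are part of the calls that chose the regions, so these shares are a description and are not tested. Like shares for regions that lacked a peak of 1 knockout are not given. Among regions called in both knockouts with under 10 tags in the lower one, 23.2% of 1143 had no wild-type peak (20.8 to 25.7). With 50 to 100 tags it was 61 of 1889 (3.23%, 2.52 to 4.13), and with 200 or more 3 of 6009 (0.0499%, 0.0170 to 0.147). By fold, it was 255 of 1110 (23.0%, 20.6 to 25.5) between 4 and 4.5 and 7 of 4291 (0.163%, 0.0790 to 0.336) at 12 or more. The share also differed by fold among regions of like tags in the lower knockout. With 50 to 100 tags, 32 of 356 regions under 5-fold had no wild-type peak (8.99%, 6.44 to 12.4), but 1 of 459 at 8-fold or more (0.218%, 0.0385 to 1.22). By input alone the share was 7.56% below 2.5 tags per kb and 2.40% at 15 or more, where regions also had more tags.

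**Figure D2:**
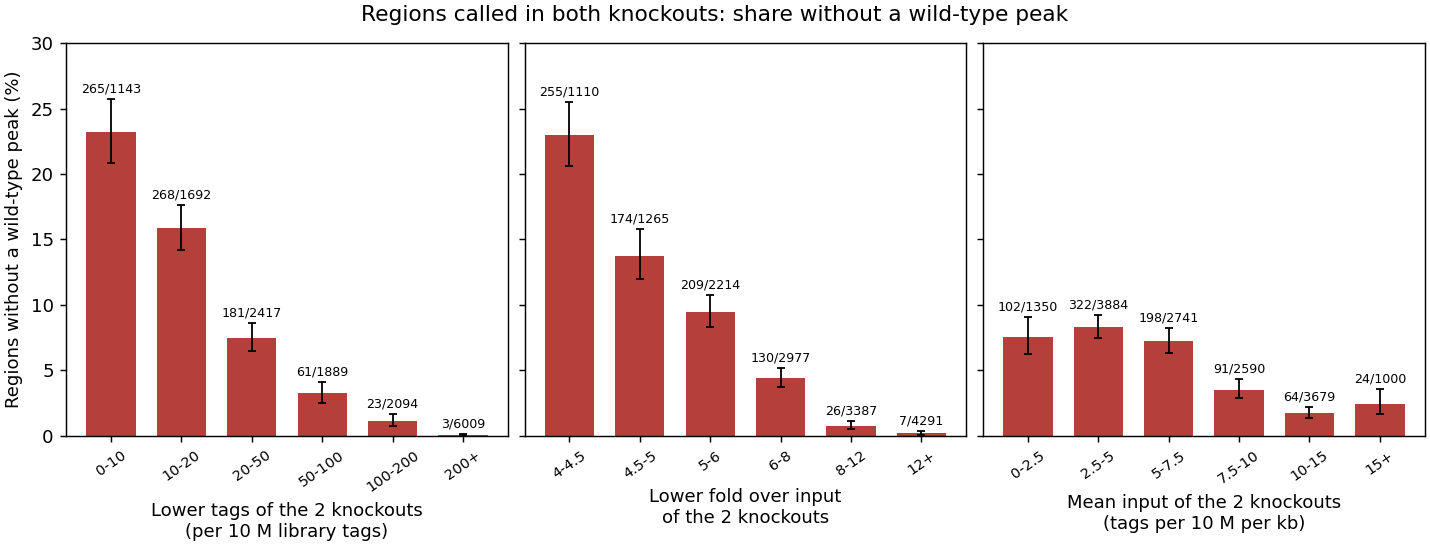
Share of the regions called in both knockouts that had no wild-type peak, by the lower knockout's tags per 10 M (left), the lower fold over input (middle) and the mean input tags per 10 M per kb (right). Bars are shares in percent with 95% Wilson intervals, and the numbers above are knockout-shared regions over all regions in the bin; shares fall from 23.2% to 0.0499% with tags and from 23.0% to 0.163% with fold.

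The 8 regions with the highest enrichment in the lower knockout differed widely in tags and input. The highest lower fold was on chromosome 6 (47717230-47717855), with 58.0 tags in Mfp2KO at 24.77-fold and 13.6 tags in Bmal1KO at 34.99-fold, 30740 bp from a wild-type peak. Input there came to 2.34 tags per 10 M in Mfp2KO and 0.4 in Bmal1KO, so the Bmal1KO fold rests on very little input. On chromosome 11 (113454985-113457407) the enrichment rested on more tags, with 305.1 in Mfp2KO at 14.22-fold and 105.3 in Bmal1KO at 10.87-fold, 18726 bp from a wild-type peak. Its input was 11.9 tags per kb in Mfp2KO and 3.99 in Bmal1KO, above the list median in Mfp2KO and below it in Bmal1KO. This was the region of the 8 leading by fold with most tags in each knockout. Of the others, those on chromosome 5 (109837857-109839362), chromosome 10 (69406575-69408000) and chromosome 6 (48531175-48532682) had 87.8, 62.4 and 96.0 tags in Mfp2KO. In Bmal1KO the same 3 had 7.18, 7.18 and 8.78 tags over 500 bp, the smallest width called. Bmal1KO input was 0.40 tags per 10 M in each, so these folds too rest on very little input. The remaining 3, on chromosomes 17, 18 and 2, had between 7.29 and 50.7 tags in Mfp2KO and between 6.38 and 18 in Bmal1KO. Their Bmal1KO input was 0.40 tags per 10 M on chromosomes 17 and 2 and 1.2 on chromosome 18. On chromosome 17 the Mfp2KO input was as low, at 0.39.

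Tags were higher in Mfp2KO than in Bmal1KO in 549 of the 801 regions (68.5%, 65.2 to 71.7), less often than the 75.1% (74.4 to 75.8) over all regions called in both knockouts. The median log2 ratio of Mfp2KO to Bmal1KO was 0.76 (95% binomial interval of the median 0.63 to 0.91) over the 801 regions and 0.48 over regions called in every genotype. Mfp2KO had at least 2-fold the tags of Bmal1KO in 359 regions (44.8%), where the background over all regions called in both knockouts was 27.7%. Bmal1KO had at least 2-fold those of Mfp2KO in 78 (9.74%), where the background was 7.31%. The counting interval of the ratio lay above 0 in 409 regions, below 0 in 92 and across 0 in 300. Both libraries entered the choice of regions, so the ratio is a description. Tags were summed over each knockout's own peaks, so the ratio also depends on called length. Per kb, Mfp2KO was at least 2-fold higher in 28.2% (25.2 to 31.4) of the 801 regions. Among regions called in every genotype this share was 23.2% (22.5 to 23.9). Bmal1KO was at least 2-fold higher per kb in 0.999% of the 801, against 0.422% of regions called in every genotype. The part of called length in the tag ratio was not tested.

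The scale matters for the direction. Relative to the tags in the peaks of each list, the ratio moves by 0.61 on the log2 scale, since Mfp2KO had more of its tags in peaks. The median was then 0.15 for the knockout-shared regions and -0.14 for regions called in every genotype. The number at least 2-fold apart became 257 higher in Mfp2KO and 151 higher in Bmal1KO, and over regions called in every genotype 2004 and 2148. On this scale 18.9% of the knockout-shared regions were at least 2-fold higher in Bmal1KO, against 14.9% of those called in every genotype. Over all tag numbers, the knockout-shared regions thus had a higher median ratio but also more regions at both ends, on both scales. Their quartiles were -0.22 and 1.93 per library tags, against 0.01 and 1.06. Under 50 tags in the lower knockout, though, fewer knockout-shared regions were at least 2-fold higher in Bmal1KO per library tags. The shares were 14.3% against 37.0% under 10 tags, 11.2% against 24.6% at 10 to 20 and 4.42% against 12.6% at 20 to 50. At 50 to 100 tags they were 3.28% and 3.17%. Among regions with 20 to 50 tags in the lower knockout the median ratio was 1.26 against 0.33, and 58.6% (51.3 to 65.5) of 181 were at least 2-fold higher in Mfp2KO against 35.5% (33.5 to 37.5) of 2236 called in every genotype. At 100 to 200 tags it was 34.8% (18.8 to 55.1) of 23 against 39.9% (37.8 to 42.1) of 2071, with intervals that overlap.

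**Figure D3:**
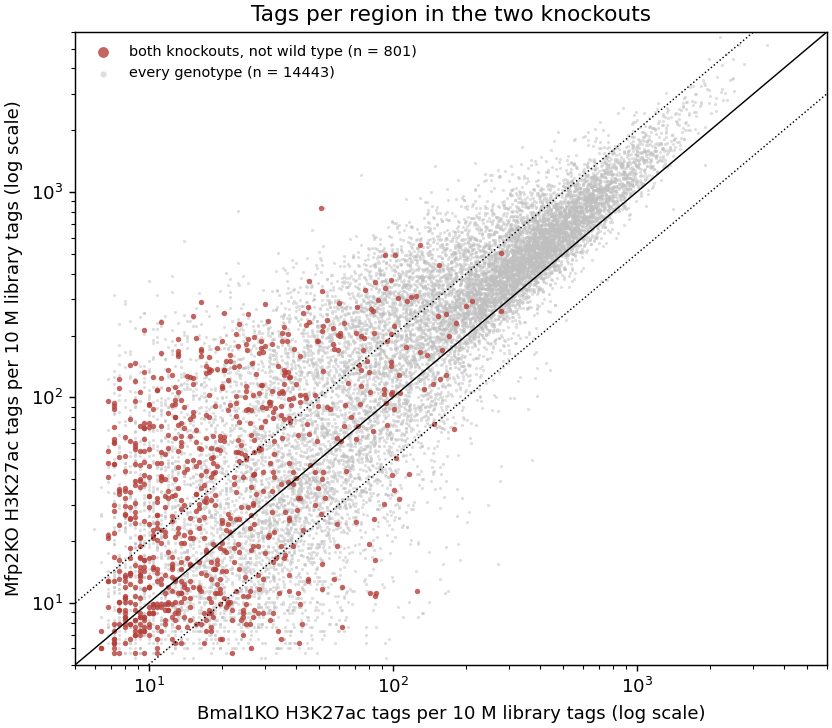
H3K27ac tags per 10 M library tags in each region, Mfp2KO (vertical, log scale) against Bmal1KO (horizontal, log scale), for the 801 knockout-shared regions (red) and the 14443 regions called in every genotype (grey). The solid line marks equal tags and the dotted lines a 2-fold difference; 359 red points lie on or above the upper dotted line and 78 on or below the lower one.

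Among regions with at least 20 tags in each knockout, the widest gap was on chromosome 10 (127452299-127458786), where Mfp2KO had 834.6 tags over 6487 bp and Bmal1KO 50.7 tags over 942 bp. The log2 ratio was 4.04 (3.68 to 4.40), and a wild-type peak of 170.6 tags lay 6034 bp away. Next came chromosome 19 (8712458-8714223), where Mfp2KO reached 257.6 tags and Bmal1KO 20.3, then chromosome 7 (25510392-25515620) with 254.8 in Mfp2KO and 25.6 in Bmal1KO, and chromosome 9 (120406109-120407504) with 227.5 and 23.5. These 4 were chosen as the extremes of that ratio, and all lay within 10 kb of a wild-type peak. The Mfp2KO peak was the longer one in each, so part of each gap was in called length. Per kb, tags were 128.7 in Mfp2KO and 53.8 in Bmal1KO on chromosome 10, and 145.9 and 26.9 on chromosome 19. They were 48.7 and 17.9 on chromosome 7, and 163.1 and 37.4 on chromosome 9. At the other end lay chromosome 15 (76499265-76502111), at 32.0 tags over 776 bp in Mfp2KO and 106.5 over 2846 bp in Bmal1KO, a log2 ratio of -1.73 (-2.20 to -1.27). Per kb, its tags were 41.2 in Mfp2KO and 37.4 in Bmal1KO, so the gap there was in called length and not in tags per kb. The next in this direction were on chromosome 15 (83250540-83252356), with 25.7 Mfp2KO tags and 83.8 Bmal1KO tags, and chromosome 11 (76398596-76401214), with 30.4 Mfp2KO tags and 91.7 Bmal1KO tags.

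Across the 801 regions the knockouts ranked tags less alike than at regions called in every genotype. Spearman's rho between Mfp2KO and Bmal1KO tags was 0.46 over the 801 regions and 0.89 over the 14443. For tags per kb it was 0.58 and 0.89. For fold over input it was 0.12 and 0.51. The points share the 2 libraries and, in part, the region length, and the range of tags was narrower among the 801.

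Many knockout-shared regions lay near acetylated sequence in wild type. The median distance to a wild-type peak was 7068 bp, and 334 regions had none within 10 kb (41.7%, 38.3 to 45.1). Regions of Mfp2KO alone had none within 10 kb in 35.7% (34.4 to 37.0), and regions of Bmal1KO alone in 44.2% (42.8 to 45.6), so the knockout-shared regions lay between them. Wild-type peaks flanked 167 of the 801 on both sides within 10 kb (20.8%, 18.2 to 23.8), and 82 had none within 50 kb. Regions with at least 20 tags in each knockout were no closer, with 41.8% (36.0 to 47.8) more than 10 kb away.

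**Figure D4:**
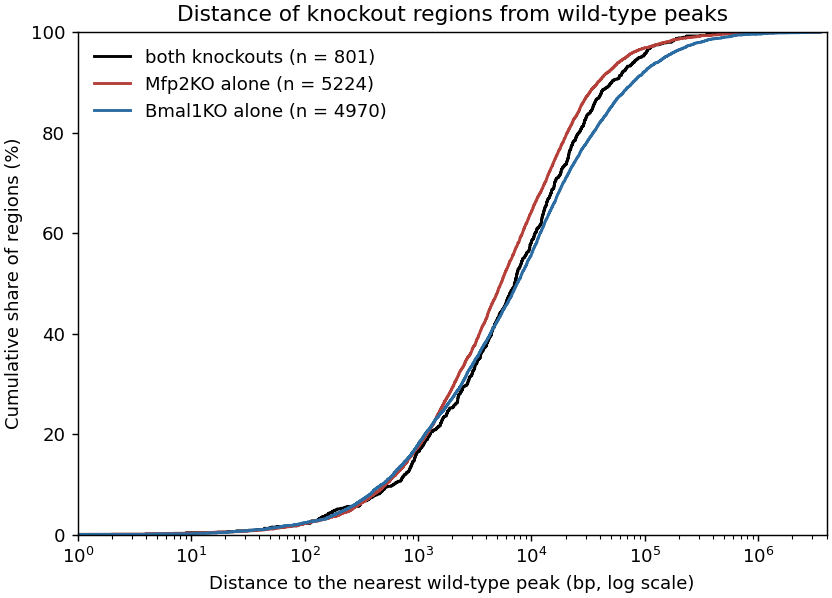
Cumulative share of regions (percent) by distance to the nearest wild-type peak (bp, log scale), for knockout-shared regions (black, n = 801), regions called in Mfp2KO alone (red, n = 5224) and in Bmal1KO alone (blue, n = 4970). The medians are 7068, 5381 and 7480 bp, and 83.4%, 82.5% and 82.1% of the regions lie more than 1 kb away.

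At the edge of the overlap rule, 18 knockout-shared regions had a wild-type peak at most 100 bp away. The closest, on chromosome 5 (136177630-136181319), lay 4 bp from one and had 196.1 tags in Mfp2KO and 27.1 in Bmal1KO. Just outside the rule, 17 regions called in every genotype overlapped wild-type peaks by at most 100 bp in sum. The least, on chromosome 8 (4542525-4544802), did so by 7 bp, with 64.3 tags in Mfp2KO and 63.0 in Bmal1KO. At the edge of the fold limit, 57 of the 801 had a fold of at most 4.1 in a knockout. Peaks under 4-fold are not in the lists.

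The regions farthest from wild-type peaks, among those with at least 20 tags in each knockout, lay at least 307599 bp from one. On chromosome 13 (16186630-16187551) the nearest wild-type peak was 1380653 bp off, and there were 43.4 tags in Mfp2KO at 4.84-fold and 29.5 in Bmal1KO at 4.01-fold. On chromosome 16 (85597357-85601654) the distance was 541573 bp, with 187.3 tags over 4297 bp in Mfp2KO and 36.7 over 1716 bp in Bmal1KO. Chromosome 15 (33083094-33084445) followed at 352113 bp with 54.2 Mfp2KO tags and 27.1 Bmal1KO tags, and chromosome 18 (42083218-42085546) at 307599 bp with 161.6 in Mfp2KO and 21.5 in Bmal1KO. Of these, counted with the chromosome 18 region named above, 4 of 5 were under 6-fold in the lower knockout.

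Knockout-shared regions were spread over all 19 chromosomes. As a share of the regions called in both knockouts, they ranged from 3.82% (2.64 to 5.51) on chromosome 3 to 6.84% (4.80 to 9.65) on chromosome 18, with intervals that overlap. Of 487 windows of 5 Mb with a region called in both knockouts, 47 had 5 or more knockout-shared regions and held 316 of them. The share of all regions called in both knockouts that lay in those windows is not given. The window with most was on chromosome 10 from 75 to 80 Mb, where 15 of 97 regions called in both knockouts had no wild-type peak (15.5%, 9.60 to 24.0). The median share over 287 windows with at least 20 such regions was 4.88%, and this window was picked for its number, a choice that the interval does not allow for. Its region with most tags in the lower knockout (78004448-78005925) had 206 tags in Mfp2KO and 71.0 in Bmal1KO, 7620 bp from a wild-type peak. In 14 of the 15 the lower fold was under 6. The adjoining window, from 80 to 85 Mb, held 11 of 103.

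Regions called in every genotype that lay near knockout-shared regions had tag ratios to wild type close to those over all such regions. This was asked because their tags were not used to choose the 801. Within 10 kb of a knockout-shared region there were 475 of them, with a median log2 ratio of tags to wild type of 0.54 in Mfp2KO and -0.29 in Bmal1KO. Over all 14443 the medians were 0.44 in Mfp2KO and -0.20 in Bmal1KO. The neighbours had more tags than wild type in 65.3% of cases in Mfp2KO and 38.7% in Bmal1KO, against 63.1% and 41.3% over all. Per kb, the medians near knockout-shared regions were 0.69 in Mfp2KO and -0.01 in Bmal1KO, against 0.69 and 0.07. The called width in Mfp2KO exceeded that in wild type at 31.4% of the 475 and 21.0% of all, with median log2 ratios of -0.23 and -0.36, and in Bmal1KO at 22.3% and 21.9%. Both ratios have the same wild-type library below the line.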

How the data were processed

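The members and comparisons were chosen with earlier results of these data known. Data were 3 peak lists, 1 per H3K27ac ChIP library, each called against the input of its genotype. Per the file headers, the authors ran HOMER findPeaks in its histone style, stitching 500 bp windows and keeping regions at 4-fold or more over input, with a p-value of 1.00e-04 or less. The submitters' processing notes list HOMER 5.1, BWA 0.7.19-r1273, Picard 3.4.0, MACS3 3.0.3, fastp 1.0.1 and SAMtools 1.23, in no order or role, and mm39. The headers state a maximum of 1 tag considered per bp; filtering of multiply mapped reads was not stated. Normalized tag counts are a deposited signal, set by the authors to a library of 10 M tags. Input tags, also a deposited signal, were brought to the same scale by the ratio of normalized to total ChIP tags of each peak. The deposited fold over input is a ratio after depth scaling. The deposited score was used in 1 alternative, to rank peaks within a list. The authors' p-value was not used further.

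Peaks overlapping by at least 1 bp were merged with pandas 2.3.3, numpy 2.4.6 and scipy 1.17.1 in Python 3.11.15, after a check on simulated peaks. Tags, input and called length were summed over the peaks of a region, and the highest fold was taken. Counting intervals treat every tag as independent, although tags come in steps of 0.5. Regions named in the text were the 12 with most tags and the 8 with the highest fold in the lower knockout, and, among those with at least 20 tags in each knockout, the 5 farthest from wild-type peaks and the 4 at each end of the knockout ratio, plus the leading region of the densest window. Planned values over gene starts and sequence motifs were not run, since no genome or annotation of mm39 was used here.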

Additional observations from a re-analysis of the deposited data

Results flagged for a closer look

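Chromosomes other than 1 to 19 were outside the rule, and 10 further regions there had peaks of each knockout but no wild-type peak, each with a signal of at least 4-fold over the input of its genotype. Of these, 9 were on chromosome X and 1 on chromosome Y. On X, Mfp2KO had more tags than Bmal1KO in 6 of the 9, and 7 lay more than 10 kb from a wild-type peak. The one with most tags in both knockouts, on X at 169108358-169110705, had 129 in Mfp2KO and 246.1 in Bmal1KO, with a wild-type peak 1045 bp away. The region on chromosome X at 93410225-93411766 had 103.3 tags in Mfp2KO at 9.13-fold and 14.0 in Bmal1KO at 9-fold, and no wild-type peak within 130134 bp. The one at 134642757-134644419 had 83.3 tags in Mfp2KO and 12.8 in Bmal1KO, 143730 bp from a wild-type peak.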

How the results depend on the processing

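The count of 801 regions stayed within 1.5 times under 7 of 13 alternatives. It was 458 without regions that had a wild-type peak within 5 kb, 373 with at least 5-fold over input in the knockouts, 259 with at least 20 tags in the knockouts and 157 with knockout peaks of at least 1 kb. It was 106 with at least 5-fold and 20 tags, an alternative chosen after seeing the data. Equal numbers of peaks per list gave 835 by tags but 2290 by score. With at least 5-fold in every list, wild type included, it was 1120. The median log2 ratio of Mfp2KO to Bmal1KO, 0.76, was 0.15 with tags as a share of the list, 0.53 per kb and 1.17 with at least 20 tags in each knockout. The share more than 10 kb from a wild-type peak, 41.7%, was 57.2% at a limit of 5 kb and 10.2% at 50 kb. Fewer peaks or another limit set the lower counts and the distance shares by construction. The settings that gave 835, 1120 and 2290 also removed wild-type peaks. A region called in every genotype that lost only its wild-type peak joins the count there. For the other values the cause was not tested. Shares over gene starts and sequence motifs were planned and not run. No paired analysis was possible because each genotype had 1 library. Many of the weakest calls rest on about 10 tags, and the part of depth in them was not tested. Absence from the wild-type list is not absence of the mark.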

Other observations

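Some knockout-shared regions lay next to each other. In 22 cases neighbouring ones were at most 10 kb apart, and in 70 at most 50 kb. On chromosome 1 the leading region named above (74820556-74822556) had a second one 1117 bp before it (74817582-74819439), which held 34.9 Mfp2KO tags and 29.5 Bmal1KO tags. The nearest wild-type peak to it was 36071 bp away. On chromosome 14 a pair 1000 bp apart (52240622-52243104 and 52244104-52245302) had 68.8 and 18.4 tags in Mfp2KO, and 82.6 and 19.5 in Bmal1KO.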
